A study of Mus musculus with 10 samples.

Results

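The genes described here are 40 mouse genes of the cell cycle and DNA replication, taken by gene symbol from 2 tables of RNA-seq values, and all 40 were found among the 23202 genes of a table of sorted tumor macrophages and among the 19720 genes of a table of whole mammary tumors. They fall into 7 genes of G1 control, 14 genes of S phase and 19 genes of G2 and mitosis. The sorted libraries came from 3 mice labelled cKO (725, 746 and 867), which were MMTV-PyMT animals on the B6 background with floxed Cxcr4 (Cxcr4fl/fl) and LysmCre, and from 3 control littermates (706, 720 and 775) with MMTV-PyMT and Cxcr4fl/fl but no Cre. Whole tumors were sequenced as well from cKO mice 725 and 746 and from control mice 706 and 720, so that 6 mice gave 10 libraries and 4 mice gave both kinds. All mice were 15 weeks old, all carried the floxed Cxcr4 allele and the PyMT transgene, and the tumors compared had been matched in size. MMTV-PyMT mice form mammary carcinomas from a viral oncogene expressed in the mammary epithelium, and the LysM promoter drives Cre in macrophages and other myeloid cells and not in the tumor epithelium.

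A cell that enters the cycle first makes D-type cyclins, which with CDK4 inactivate the retinoblastoma protein and release E2F transcription factors. E2F then drives the genes that load and fire replication origins and that make deoxynucleotides, and a later wave of transcription, carried by the MuvB complex with B-MYB and FOXM1, supplies the kinases, motors and checkpoint proteins of mitosis. In mammary tumors transcripts of this programme can come from dividing carcinoma cells and also from macrophages, which can divide within a tumor. In bulk RNA, fewer dividing cells and less RNA of a gene per cell cannot be told apart.

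Values are in CPM, the reads of a gene scaled to a library total of 1000000, and differences are on the log2(CPM + 1) scale, cKO minus control. Depth was 14.4 to 25.2 M reads (M, 1000000) in the sorted libraries and 34.2 to 53.4 M reads in the tumors, read from the steps between low values. Cxcr4, the targeted gene, was at 41.9, 165 and 24.1 CPM in the sorted libraries labelled cKO, against 14.5, 135 and 54.3 CPM in the control sorted libraries, with overlap. In the tumors it was at 47.9 and 57.6 CPM in those labelled cKO, against 29.8 and 33.4 CPM in controls, so it was above both controls in both tumors labelled cKO. The Cxcr4 levels thus did not show the deletion the labels name, and every direction given here is that of libraries labelled cKO. The sorted libraries held macrophage marker genes at a summed 497 to 1233 CPM over 6 genes, against 52.8 to 58.2 CPM in the tumors. They also held epithelial markers (6 genes, Epcam, Cdh1 and keratins) at 1601 to 2573 CPM, against 891 to 1046 CPM in the tumors, and the part of those cells in the cell cycle values was not tested. Of these markers, Krt8, Krt18 and Cdh1 were higher in every sorted library than in every tumor, whereas Epcam, Krt14 and Krt5 overlapped. Krt5 lay at 0 to 6.40 CPM in sorted libraries, against 4.52 to 10.4 CPM in tumors. The sorted library of control 775 had the lowest macrophage sum (497 CPM), and that of cKO 867 had the highest fibroblast sum (5 genes, 1156 CPM, against 56.5 to 419 CPM in the other 5 sorted libraries) and the highest endothelial sum (5 genes, 238 CPM, against 14.3 to 92.5 CPM). Of the fibroblast markers, Dcn and Pdgfra were lower in cKO 867 (86.9 and 5.64 CPM) than in control 775 (155 and 8.91 CPM). All 5 T and NK cell markers and all B cell markers listed stayed at or under 8.74 CPM in every library, and Cd3e, Cd3g, Cd8a and Ncr1 each had sorted libraries at 0.

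Some promoters of these genes carry the letters through which the 2 waves of transcription are known to be read. RefSeq promoter windows (GRCm38.p6, the same assembly as mm10) were found for 31 of the 40 genes, and the 250 bases before the annotated start were searched on both strands for an E2F element (GCGGGAA or GCGCGAA), for the cell cycle genes homology region or CHR (TTTGAA), which MuvB contacts, and for the CCAAT box of NF-Y. For a gene with several starts listed, only the first was used. No match of one motif can hold a match of another, though neighbouring matches may share bases at their ends. An E2F element was present in 41.7% of S phase promoters (5 of 12, in Mcm5, Mcm6, Mcm7, Rrm1 and Cdc6), against 6.67% of mitotic promoters (1 of 15, Cdk1) and 5.02% of all 27025 promoters in the reference. The windows of Mcm7 and Cdc6 lie wholly inside the gene spans of GENCODE vM21, which begin further upstream. CHR letters were present in 16.7% of S phase promoters (2 of 12), against 40% of mitotic promoters (6 of 15, Mki67, Top2a, Cdk1, Ccnb2, Cdc20 and Kif11) and 16.3% of all promoters. A CCAAT box was present in 75.0% of S phase promoters, against 93.3% of mitotic promoters and 34.5% of all promoters. Among other replication genes, 37.9% of 29 promoters held an E2F element and 13.8% a CHR, and among other mitotic genes 5.56% of 36 held an E2F element and 36.1% a CHR. A match describes letters only, and no binding was measured.

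Promoters of 3 S phase genes and 3 mitotic genes are shown. Pcna, Rrm2, Ccnb1, Top2a and Kif11 carry contrasts between sorted cells and tumors described below. Mcm6 carries no such contrast and has the most E2F elements of the S phase promoters found. Capitals mark E2F, CHR and CCAAT letters on either strand, and each run is given 5′ to 3′ in the direction of the gene and ends at the base before its start.
Mcm6, chr1:128359706-128359955, minus strand: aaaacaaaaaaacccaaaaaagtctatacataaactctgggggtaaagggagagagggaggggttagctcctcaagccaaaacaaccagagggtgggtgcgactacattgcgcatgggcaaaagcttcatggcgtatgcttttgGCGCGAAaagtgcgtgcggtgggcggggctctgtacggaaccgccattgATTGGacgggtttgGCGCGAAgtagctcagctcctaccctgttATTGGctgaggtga
Pcna, chr2:132253181-132253430, minus strand: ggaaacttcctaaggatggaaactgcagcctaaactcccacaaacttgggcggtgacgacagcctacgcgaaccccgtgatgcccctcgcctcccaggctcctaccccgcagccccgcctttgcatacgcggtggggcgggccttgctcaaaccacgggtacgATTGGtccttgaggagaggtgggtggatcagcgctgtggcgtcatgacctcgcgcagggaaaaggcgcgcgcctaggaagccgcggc
Rrm2, chr12:24708004-24708253, plus strand: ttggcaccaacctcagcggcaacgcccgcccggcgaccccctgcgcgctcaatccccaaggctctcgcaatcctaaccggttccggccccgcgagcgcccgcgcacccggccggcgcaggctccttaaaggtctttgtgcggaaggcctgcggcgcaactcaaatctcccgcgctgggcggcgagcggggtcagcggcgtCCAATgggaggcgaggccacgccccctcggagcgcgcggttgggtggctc
Ccnb1, chr13:100786487-100786736, minus strand: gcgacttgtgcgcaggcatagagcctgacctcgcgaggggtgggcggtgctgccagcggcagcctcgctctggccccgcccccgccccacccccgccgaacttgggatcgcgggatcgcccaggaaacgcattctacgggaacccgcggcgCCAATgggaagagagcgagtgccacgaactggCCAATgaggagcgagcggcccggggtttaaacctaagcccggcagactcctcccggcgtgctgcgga
Top2a, chr11:99024190-99024439, minus strand: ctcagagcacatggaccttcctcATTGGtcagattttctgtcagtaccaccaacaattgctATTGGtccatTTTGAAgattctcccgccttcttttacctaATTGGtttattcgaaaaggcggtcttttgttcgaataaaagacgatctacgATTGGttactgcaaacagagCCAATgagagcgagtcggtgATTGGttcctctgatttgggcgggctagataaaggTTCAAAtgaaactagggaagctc
Kif11, chr19:37376132-37376381, plus strand: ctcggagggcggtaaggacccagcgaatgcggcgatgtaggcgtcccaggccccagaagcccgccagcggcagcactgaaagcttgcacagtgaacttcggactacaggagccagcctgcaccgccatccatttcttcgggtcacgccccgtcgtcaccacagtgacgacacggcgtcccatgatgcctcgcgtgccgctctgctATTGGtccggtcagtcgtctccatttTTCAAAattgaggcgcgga
The Mcm6 promoter held 2 E2F elements and 2 CCAAT boxes. In Pcna and Rrm2 the window held a single CCAAT box and no E2F element of these letters. Top2a held 6 CCAAT boxes and 2 CHR matches, the nearer one at position -23 from the start, Kif11 held 1 of each, with its CHR at position -19, and Ccnb1 held 2 CCAAT boxes without these CHR letters.

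**Figure D1:**
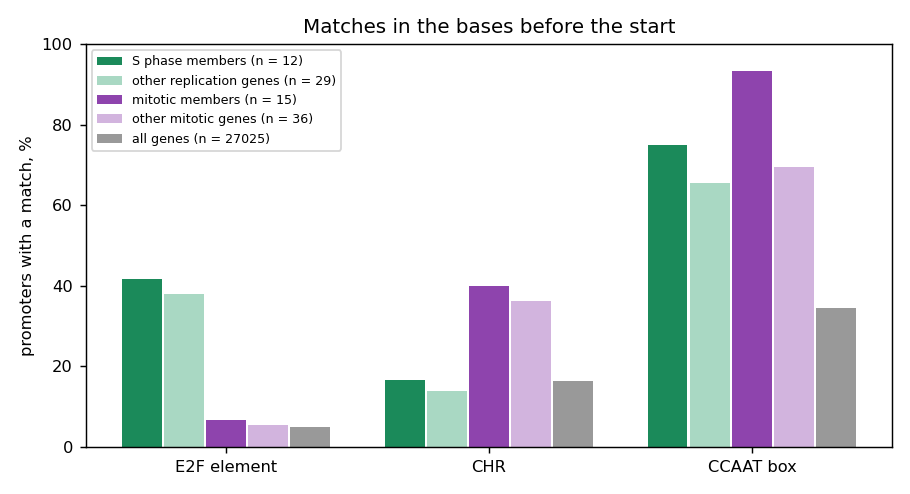
Share of promoters (vertical axis, percent of promoters in the reference, from 0) with at least 1 E2F element, CHR or CCAAT box in the 250 bases before the start, for S phase members, other replication genes, mitotic members, other mitotic genes and all genes (n in the legend). E2F letters were found in 41.7% of S phase members and 6.67% of mitotic members, and CHR letters in 16.7% and 40%.

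Between cKO and control, no member passed the test in either kind of library. In the sorted libraries 39 of the 40 members reached the expression minimum (a mean of at least 1 CPM; Ccne1 did not) and 0 of 39 had a limma adjusted p under 0.05, where 0 of 16304 genes tested (0%) did. At an unadjusted p under 0.05 the counts were 0 of 39 members and 428 of 16304 genes (2.63%). Of the 39 members 19 had a positive and 20 a negative difference, with a median of -0.08, where the median over all genes tested was 0.05. In the tumors 0 of 39 members passed, again with 0 of 14630 genes (0%), and 2 of 39 members had an unadjusted p under 0.05, where 856 of 14630 genes (5.85%) did. There 17 members had a positive and 22 a negative difference, with a median of -0.06, where the median over all genes was 0.09. Few intervals were narrow: 9 members in the sorted libraries and 12 in the tumors had a 95% interval that lay wholly within a 2-fold difference either way, and the intervals of the others reached a 2-fold difference in at least 1 direction. Without the sorted library of cKO 867, control 706 or control 775, the genes past the threshold numbered 1, 1 and 3, and no member was among them.

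**Figure D2:**
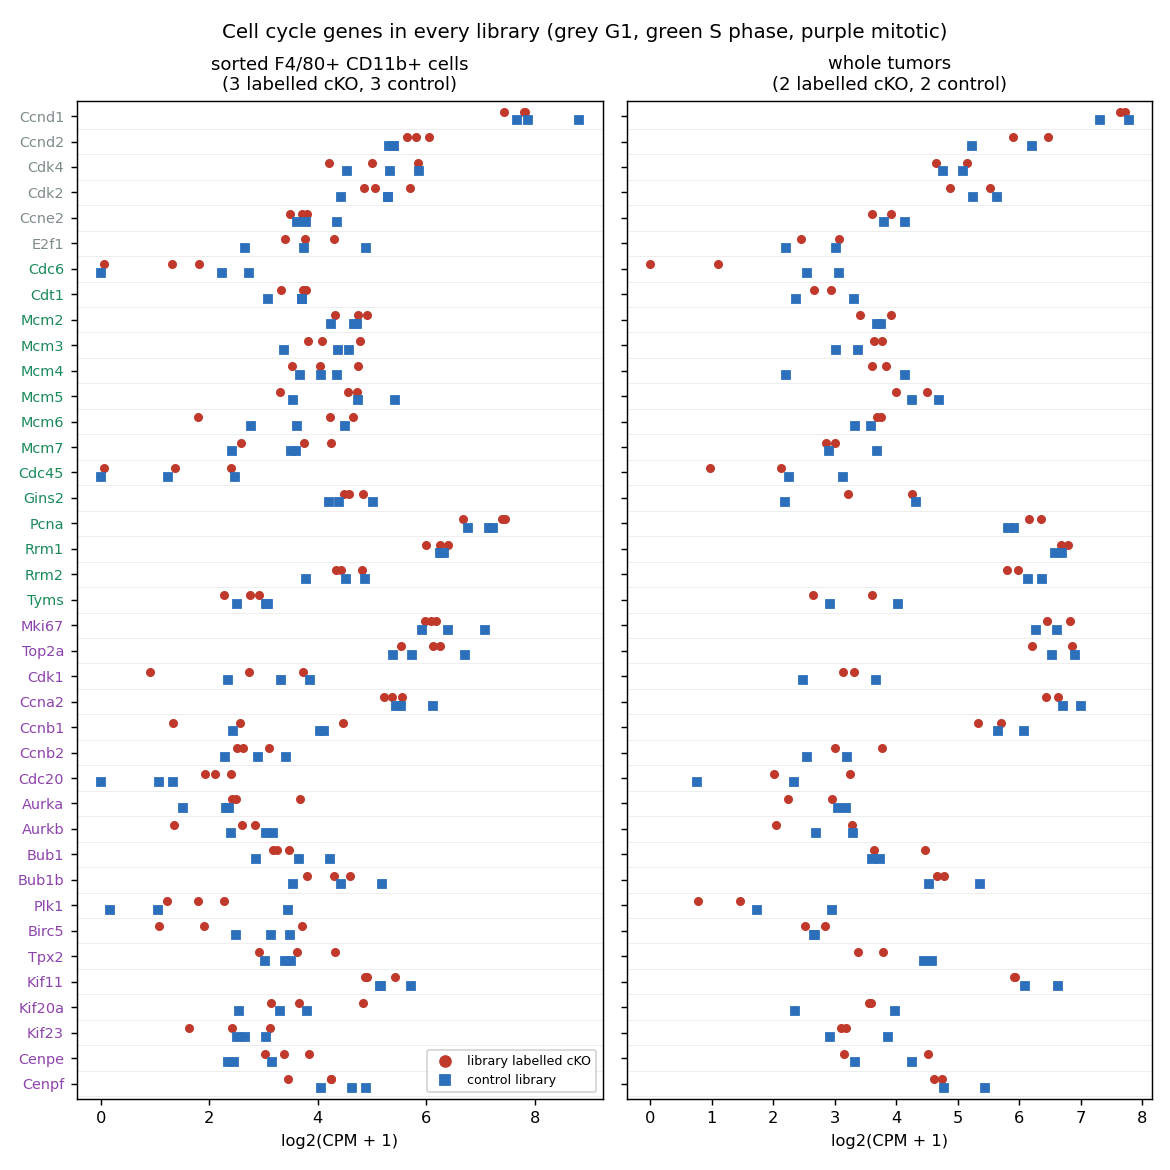
Level of 39 members in every library, on a log2(CPM + 1) axis, with sorted cells in the left panel and whole tumors in the right panel, circles for libraries labelled cKO and squares for controls. Ccne1, under 1 CPM on average, is not drawn. The circles and squares of most members are interleaved, and in the sorted cells Plk1 spreads from 0.130 to 10 CPM.

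Of the G1 genes, the D-type cyclins had the most reads. Ccnd1, which encodes cyclin D1, had 226, 223 and 172 CPM in the sorted libraries labelled cKO, against 204, 234 and 449 CPM in the control sorted libraries. Its tumor levels were 198 and 210.0 CPM in the tumors labelled cKO, against 219 and 158 CPM in the control tumors. Both kinds of library thus held Ccnd1 at 158 CPM or more, the groups overlapped in each, and the highest value was that of sorted control 775. Differences were -0.44 (SE 0.28, 95% interval -1.02 to 0.15) in sorted cells and 0.13 (SE 0.20, 95% interval -0.30 to 0.57) in tumors, with limma adjusted p of 0.9998 and 0.94. Ccnd2, which encodes cyclin D2, had 55.2, 65 and 49.2 CPM in the sorted libraries labelled cKO, against 41.6, 38.6 and 41.1 CPM in the control sorted libraries. The 3 sorted libraries labelled cKO were all above the 3 controls, which 3.78% of all genes tested also showed, and the difference of 0.46 (SE 0.29, 95% interval -0.15 to 1.07) had an adjusted p of 0.9998 (limma). In the tumors, where Ccnd2 stood at 58.4 and 87.8 CPM in the tumors labelled cKO, against 73.3 and 36.4 CPM in the control tumors, the groups overlapped. The ratio of Ccnd1 to Ccnd2 within a library, which no scaling can change, was 4.1, 3.42 and 3.49 in sorted libraries labelled cKO, against 4.91, 6.06 and 10.9 in control sorted libraries, without overlap, while in tumors it was 3.39 and 2.39 in those labelled cKO, against 2.99 and 4.33 in controls, with overlap. With 3 libraries a group an exact permutation test cannot go below a two-sided p of 0.10, and this ratio was chosen after its values were seen.

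The other G1 genes encode the kinases CDK4 and CDK2, the E-type cyclins that activate CDK2, and the transcription factor E2F1. Cdk4 lay between 17.5 and 57.1 CPM in sorted libraries and between 24 and 34.7 CPM in tumors. Cdk2 lay between 20.6 and 50.8 CPM and between 28.2 and 48.7 CPM. For both kinases the groups overlapped in each kind of library. Of the E-type cyclins, Ccne2 was found in every library (10.2 to 19.6 CPM in sorted cells, 11.2 to 16.7 CPM in tumors), whereas Ccne1 was listed at 0 in 3 sorted libraries and 1 tumor and reached at most 1.79 CPM in sorted cells and 2.37 CPM in tumors. E2f1 had 12.7, 18.8 and 9.5 CPM in the sorted libraries labelled cKO, against 28.8, 12.4 and 5.3 CPM in the control sorted libraries. The tumor values were 4.46 and 7.4 CPM in the tumors labelled cKO, against 3.6 and 7.11 CPM in the control tumors. The groups overlapped in both, and 5 of the 6 sorted libraries were above every tumor. Values of Cdk4, Ccnd1 and Ccne2 are uncertain to the extent that their coding neighbours Tspan31, LTO1 and Ints8 overlap them, since the strand setting of the counting is not given in the sources used here.

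CDC6 and CDT1 load the MCM helicase on origins before S phase, and CDC45 and the GINS complex, of which Gins2 encodes a subunit, turn it into an active helicase. Cdc6 had 2.51, 1.5 and 0.0397 CPM in the sorted libraries labelled cKO, against 3.68, 0 and 5.61 CPM in the control sorted libraries. Its tumor levels were 0 and 1.13 CPM in the tumors labelled cKO, against 4.86 and 7.39 CPM in the control tumors. Both tumors labelled cKO were below both controls, as for 14.3% of all genes tested in tumors, and Cdc6 was 1 of the 2 members with an unadjusted p under 0.05 there, with a difference of -2.26 (SE 0.88, 95% interval -4.13 to -0.40) and an adjusted p of 0.82 (limma). The size of the Cdc6 difference depended on the pseudocount, at -4.12 with 0.1 CPM and -0.998 with 5 CPM. The sorted libraries overlapped and ranged from 0 to 5.61 CPM with each group holding a library at 1 read or none. A gene listed at 0 allows up to 0.119 to 0.208 CPM in a sorted library and 0.0562 to 0.0878 CPM in a tumor (3 reads, counting error only). Cdc45 had 1.57, 4.3 and 0.0397 CPM in the sorted libraries labelled cKO, against 4.59, 0 and 1.35 CPM in the control sorted libraries. Whole tumors held it at 3.37 and 0.960 CPM in the tumors labelled cKO, against 7.73 and 3.75 CPM in the control tumors, again with both cKO values below both controls. Cdt1, at 7.44 to 12.8 CPM in sorted cells and 4.18 to 8.99 CPM in tumors, and Gins2, at 17.4 to 31.2 and 3.57 to 18.9 CPM, overlapped between groups in both. Cdc45 and Gins2 overlap the coding genes Ufd1 and Gse1.

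None of the 6 subunit genes of the MCM helicase passed the test, and their sums overlapped between groups. Mcm2 had 25.8, 29 and 18.8 CPM in the sorted libraries labelled cKO, against 25.4, 18 and 24.4 CPM in the control sorted libraries. In tumors it had 14 and 9.63 CPM in the tumors labelled cKO, against 12.4 and 11.9 CPM in the control tumors. Mcm5 had 22.7, 25.6 and 8.82 CPM in the sorted libraries labelled cKO, against 41.8, 10.7 and 25.9 CPM in the control sorted libraries. The groups overlapped for both genes, and sorted cKO 867 had the lowest Mcm5 while sorted control 706 had the highest. Summed over the 6 subunits, the level was 97.5, 149 and 71.2 CPM in the sorted libraries labelled cKO, against 127, 85.9 and 97.4 CPM in the control sorted libraries. The tumor sums were 78.3 and 68.2 CPM in those labelled cKO, against 77.5 and 65.0 CPM in controls. Among single subunits, Mcm3 (12.7 and 11.4 CPM in tumors labelled cKO, against 9.34 and 7.14 CPM in control tumors) and Mcm6 (12.5 and 11.8 CPM, against 9.02 and 11 CPM) had both tumors labelled cKO above both controls, which 21.2% of all genes tested in tumors also had. In the sorted cells Mcm6 varied most of the 6, from 2.46 CPM in cKO 867 to 24.2 CPM in cKO 746, a 9.83-fold range within a single group. Mcm7 shares ground with the coding genes Cops6 and Ap4m1.

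Genes of the replication fork and of nucleotide supply came next. Pcna, the sliding clamp of DNA polymerases, had 168, 173 and 101 CPM in the sorted libraries labelled cKO, against 141, 149 and 108 CPM in the control sorted libraries. The tumor values were 80.5 and 70.4 CPM in the tumors labelled cKO, against 59.2 and 55.7 CPM in the control tumors. Both tumors labelled cKO were above both controls, with a difference of 0.38 (SE 0.24, 95% interval -0.13 to 0.90) and an adjusted p of 0.84 (limma), and the sorted libraries overlapped, with 0.13 (SE 0.27, 95% interval -0.43 to 0.69) and an adjusted p of 0.9998. A pseudogene copy, Pcna-ps2, was listed at 12.1 to 20.6 CPM in sorted cells and 4.15 to 12.8 CPM in tumors, so some Pcna reads may lie there. Ribonucleotide reductase makes deoxynucleotides from a large subunit, Rrm1, and a small subunit, Rrm2, whose protein is known to be limited to S phase. Rrm1 spanned a 1.33-fold range over the 6 sorted libraries (62.4 to 83.3 CPM) and a 1.15-fold range over the 4 tumors (95.3 to 109.6 CPM), the narrowest of the 40 members in each kind. Rrm2 had 27.2, 20.7 and 19.2 CPM in the sorted libraries labelled cKO, against 22, 28.4 and 12.7 CPM in the control sorted libraries. Whole tumors held it at 62.3 and 54.7 CPM in the tumors labelled cKO, against 82.2 and 69.8 CPM in the control tumors. The tumors labelled cKO were both below the controls, and the sorted libraries overlapped, with differences of -0.37 (SE 0.25, 95% interval -0.89 to 0.15) in tumors and 0.14 (SE 0.41, 95% interval -0.71 to 0.98) in sorted cells and adjusted p of 0.86 and 0.9998 (limma). As a ratio within the library, Pcna to Rrm2 was 1.29 and 1.29 in tumors labelled cKO, against 0.721 and 0.798 in control tumors. With 2 tumors a group no permutation of labels can reach a p of 0.05, and the same ratio overlapped in sorted cells, at 6.17, 8.39 and 5.28 in those labelled cKO, against 6.40, 5.24 and 8.47 in controls. Tyms, which makes thymidylate, lay between 3.86 and 7.43 CPM in sorted cells and between 5.25 and 15.4 CPM in tumors, with overlap in both.

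No mitotic gene passed the test in either kind of library. Mki67, which encodes the proliferation marker Ki-67, had 61.7, 67.2 and 71.5 CPM in the sorted libraries labelled cKO, against 83.6, 135 and 59.5 CPM in the control sorted libraries. In tumors it had 86.2 and 113 CPM in the tumors labelled cKO, against 76.5 and 96.7 CPM in the control tumors. Top2a, the topoisomerase that separates sister chromatids, had 69.2, 75.8 and 45.1 CPM in the sorted libraries labelled cKO, against 104, 52.4 and 40.7 CPM in the control sorted libraries. Both genes overlapped in both kinds of library, and the highest values were those of sorted control 720 for Mki67 and of tumor control 706 for Top2a. For Top2a the sorted difference of 0.03 turned to -0.03 when libraries were scaled to their protein-coding genes. Cdk1, the kinase that starts mitosis, had 5.65, 12.3 and 0.874 CPM in the sorted libraries labelled cKO, against 13.4, 8.99 and 4.09 CPM in the control sorted libraries. The sorted libraries labelled cKO included the lowest value and nearly the highest, a 15.3-fold range over the 6 libraries. In tumors Cdk1 had 8.95 and 7.8 CPM in the tumors labelled cKO, against 11.7 and 4.56 CPM in the control tumors. The cyclin partners of CDK1 differed from each other. Ccna2, for cyclin A2, had 36.4, 46.1 and 40.4 CPM in the sorted libraries labelled cKO, against 69, 45.6 and 42.3 CPM in the control sorted libraries. Ccnb1, for cyclin B1, had 4.92, 21 and 1.51 CPM in the sorted libraries labelled cKO, against 16.3, 15.5 and 4.44 CPM in the control sorted libraries. Ccna2 was at 36.4 CPM or more in every sorted library, and Ccnb1 ranged 13.9-fold, with the lowest value in cKO 867 (1.51 CPM). In tumors Ccna2 had 98.4 and 85.3 CPM in the tumors labelled cKO, against 127 and 104 CPM in the control tumors. Ccnb1 had 39.4 and 51.2 CPM in the tumors labelled cKO, against 49.7 and 66.9 CPM in the control tumors. The tumors labelled cKO were both below the controls for Ccna2 and overlapped with them for Ccnb1, and the differences of -0.33 (SE 0.22, 95% interval -0.80 to 0.14) and -0.35 (SE 0.28, 95% interval -0.95 to 0.24) had adjusted p of 0.86 and 0.88 (limma). Ccnb1 has a listed pseudogene copy at up to 5.43 CPM in sorted cells and 6.35 CPM in tumors, and Ccna2 overlaps the coding gene Exosc9.

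No kinase or regulator of mitosis passed the test. Aurka, the Aurora kinase of the spindle poles, had 4.62, 11.8 and 4.33 CPM in the sorted libraries labelled cKO, against 4.17, 3.96 and 1.87 CPM in the control sorted libraries. The tumor values were 3.71 and 6.75 CPM in the tumors labelled cKO, against 7.32 and 8.11 CPM in the control tumors. The sorted libraries labelled cKO were all above the controls and the tumors labelled cKO were both below theirs, with differences of 0.79 (SE 0.69, 95% interval -0.63 to 2.22) and -0.53 (SE 0.65, 95% interval -1.91 to 0.85) and adjusted p of 0.9998 and 0.92 (limma). With a pseudocount of 5 CPM the Aurka differences were 0.47 and -0.33. Cdc20, the activator of the anaphase-promoting complex, had 3.29, 2.8 and 4.29 CPM in the sorted libraries labelled cKO, against 1.11, 0 and 1.52 CPM in the control sorted libraries. The sorted libraries labelled cKO were again all above, with 1.34 (SE 0.79, 95% interval -0.29 to 2.97) and an adjusted p of 0.9998 (limma). This rests on 56 to 108 reads in those labelled cKO, against 0 to 35 reads in controls, and Cdc20 overlaps the coding gene Elovl1. Weak genes, averaging under 5 CPM in the other libraries, came in coarse amounts. Their most frequent read number above 3 was 12 to 49 in those labelled cKO and 12 to 70 in controls, and its part in the Cdc20 difference was not tested. With a pseudocount of 0.1 CPM the Cdc20 difference was 2.59, and with 5 CPM it was 0.53. In tumors Cdc20 had 8.47 and 3.05 CPM in the tumors labelled cKO, against 4.07 and 0.688 CPM in the control tumors, with overlap. Plk1, the Polo-like kinase that matures centrosomes, had 1.33, 3.85 and 2.46 CPM in the sorted libraries labelled cKO, against 10, 1.07 and 0.130 CPM in the control sorted libraries. Its highest and lowest sorted values, on 144 and 3 reads, were both controls. In tumors Plk1 had 1.74 and 0.706 CPM in the tumors labelled cKO, against 2.34 and 6.79 CPM in the control tumors, with both cKO values below both controls. Tpx2, which activates Aurora A on spindle microtubules, had 12.7 and 9.38 CPM in the tumors labelled cKO, against 20.8 and 23 CPM in the control tumors. It was the second member with an unadjusted p under 0.05 in tumors, with -0.94 (SE 0.43, 95% interval -1.85 to -0.02) and an adjusted p of 0.83 (limma), and in sorted cells, where it had 6.59, 19.1 and 11.3 CPM in the sorted libraries labelled cKO, against 9.52, 10.3 and 7.17 CPM in the control sorted libraries, the groups overlapped. Aurkb and Birc5, for the kinase and the survivin subunit of the chromosomal passenger complex, overlapped in both kinds, and Birc5 spanned 1.11 to 12 CPM in sorted cells, both ends in libraries labelled cKO, with a difference of -0.81 (SE 0.72, 95% interval -2.31 to 0.70) and an adjusted p of 0.9998 (limma), or a difference of -0.40 with a pseudocount of 5 CPM.

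Spindle motors and checkpoint genes gave the remaining mitotic values. Kif11, the motor that pushes spindle poles apart, had 42.1, 28.2 and 28.9 CPM in the sorted libraries labelled cKO, against 51.7, 34.7 and 34.6 CPM in the control sorted libraries. Whole tumors held it at 60.2 and 59.4 CPM in the tumors labelled cKO, against 98.7 and 67.8 CPM in the control tumors. Tumors labelled cKO were below the controls and sorted libraries overlapped, and the tumor difference of -0.44 (SE 0.26, 95% interval -0.99 to 0.10) had an adjusted p of 0.83 (limma). Cenpf, a kinetochore protein, had 23.6 and 25.8 CPM in the tumors labelled cKO, against 42.7 and 26.4 CPM in the control tumors. Here too both tumors labelled cKO were below the controls, with a difference of -0.43 and an adjusted p of 0.88 (limma), and the sorted groups overlapped. Cenpe, a kinetochore motor, had 9.34, 13.4 and 7.11 CPM in the sorted libraries labelled cKO, against 4.1, 7.88 and 4.52 CPM in the control sorted libraries, with overlap, and overlapped in tumors too. Ccnb2, Bub1 and Bub1b, the last a spindle checkpoint kinase relative, and the cytokinesis motors Kif20a and Kif23 overlapped in both kinds of library, at 2.11 to 35.5 CPM in sorted cells and 4.12 to 40.4 CPM in tumors over the 5 genes. In all, the members with every library labelled cKO above every control were 3 of 39 in sorted cells (Ccnd2, Cdc20 and Aurka; 3.78% of all genes) and 3 of 39 in tumors (Mcm3, Mcm6 and Pcna; 21.2% of all genes). Those with every library labelled cKO below every control were 0 of 39 in sorted cells (3.45% of all genes) and 9 of 39 in tumors (Cdc6, Cdc45, Rrm2, Ccna2, Aurka, Plk1, Tpx2, Kif11 and Cenpf; 14.3% of all genes). The fibroblast marker sum over 5 genes was 321 and 437 CPM in tumors labelled cKO, against 573 and 682 CPM in control tumors. Col3a1 (-0.98), Col1a2 (-0.76) and Dcn (-0.13) were below both controls in both tumors labelled cKO. Col1a1 (-0.44) and Pdgfra (0.16) overlapped, so the list did not move as 1. The part of these markers in the tumor counts was not tested.

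**Figure D3:**
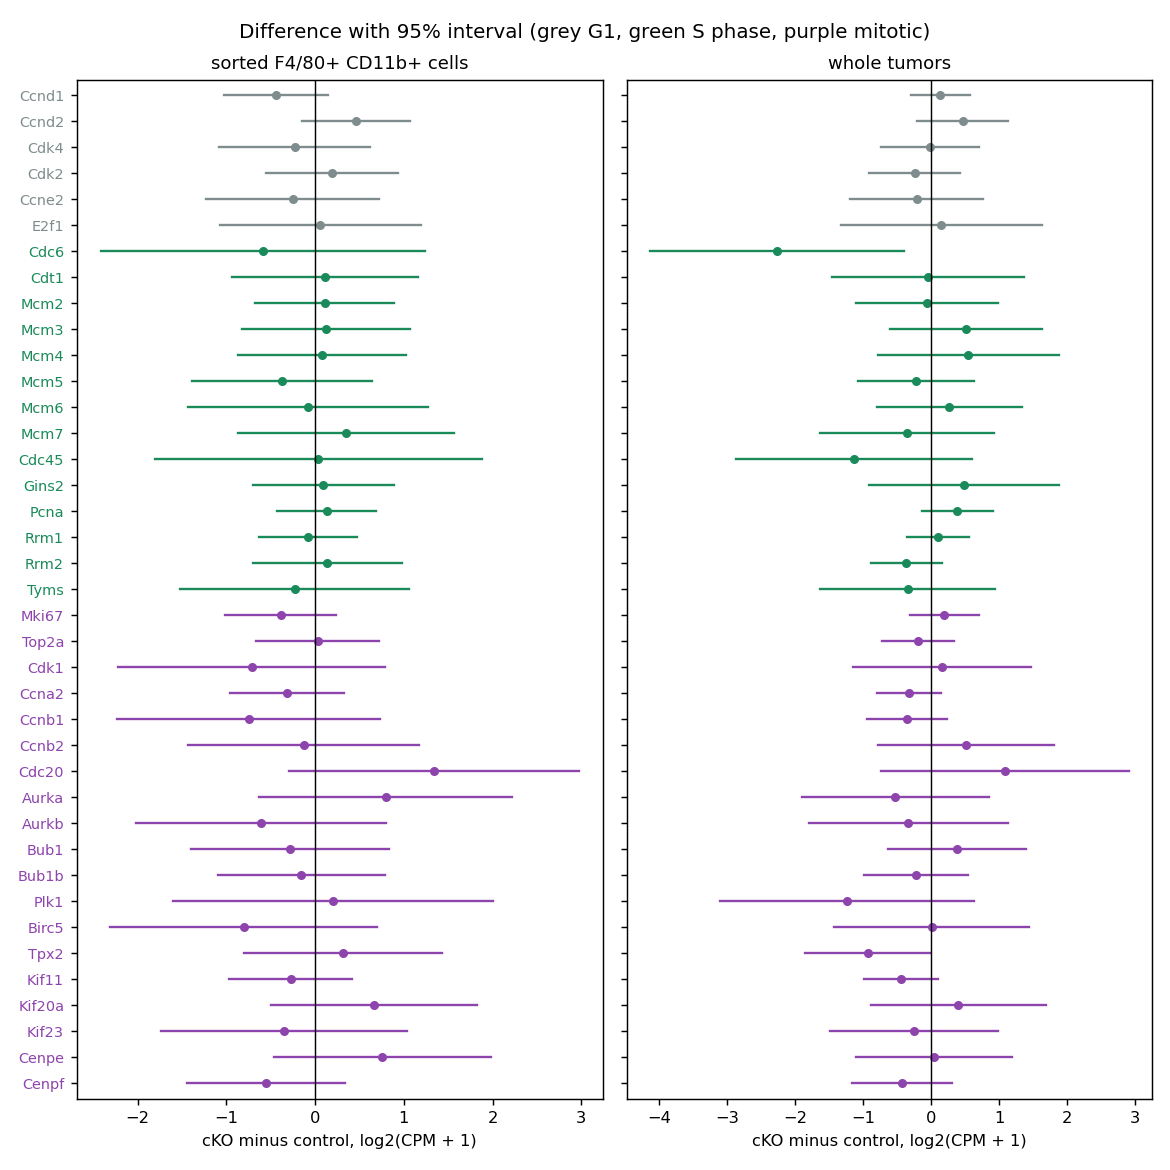
Difference between libraries labelled cKO and controls for 39 members (horizontal axis, cKO minus control on the log2(CPM + 1) scale; points are estimates and lines 95% intervals, limma), with sorted cells in the left panel and tumors in the right panel, whose horizontal axes differ in range. In the sorted cells every interval holds 0, and in the tumors those of Cdc6 and Tpx2 do not, before adjustment for the number of genes.

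S phase genes and mitotic genes were then compared as classes. In sorted cells 9 of 14 S phase members had a positive difference, with a median of 0.08, and 7 of 19 mitotic members did, with a median of -0.28, where all genes had a median of 0.05. In tumors 6 of 14 S phase members (median -0.05) and 8 of 19 mitotic members (median -0.23) were positive, where all genes had a median of 0.09. Single libraries set these counts. Without sorted cKO 746 they became 2 of 14 and 4 of 19, and without sorted control 775 they became 3 of 14 and 5 of 19. Without tumor cKO 746, 10 of 14 S phase members were positive, and without tumor control 720, 5 of 19 mitotic members were. The mean deviation of the S phase members from the table mean was 0.07, 0.42 and -0.52 in the sorted libraries labelled cKO, against 0.27, -0.14 and -0.11 in the control sorted libraries. That of the mitotic members was -0.09, 0.44 and -0.44 in those labelled cKO, against 0.48, 0.10 and -0.49 in controls. Libraries cKO 746 and control 706 were thus above 0 in both classes and cKO 867 and control 775 under 0 in both, whichever the label. Control 775 was only slightly under 0 in S phase, and its S phase minus mitotic value of 0.38 was the widest of the sorted libraries. In control 775 0 of 19 mitotic members were above their table mean. The epithelial marker sum over 6 genes was 1638, 2573 and 2008 CPM in the sorted libraries labelled cKO, against 1601, 2121 and 1905 CPM in the control sorted libraries, in the same order of mice. The fibroblast sum over 5 genes was 56.5, 137 and 1156 CPM in those labelled cKO, against 59.5, 85.9 and 419 CPM in controls, and their part in the class means was not tested. In tumors S phase deviations were 0.04 and -0.22 in those labelled cKO, against 0.28 and -0.09 in controls, and mitotic deviations 0.02 and -0.15, against 0.23 and -0.10. The S phase and mitotic means of each tumor lay on the same side of 0. S phase minus mitotic, the contrast of the classes within a library, averaged 0.03 ± 0.12 in sorted libraries labelled cKO and -0.03 ± 0.35 in control sorted libraries (SD, n = 3 each), and -0.03 ± 0.06 in tumors labelled cKO and 0.02 ± 0.03 in control tumors (SD, n = 2 each). The difference between groups in this contrast was 0.05 in sorted cells, smaller than both group SDs. In tumors it was -0.05, in size between the 2 group SDs and near their pooled SD of 0.049. An SD from 2 tumors a group is itself poorly known.

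**Figure D4:**
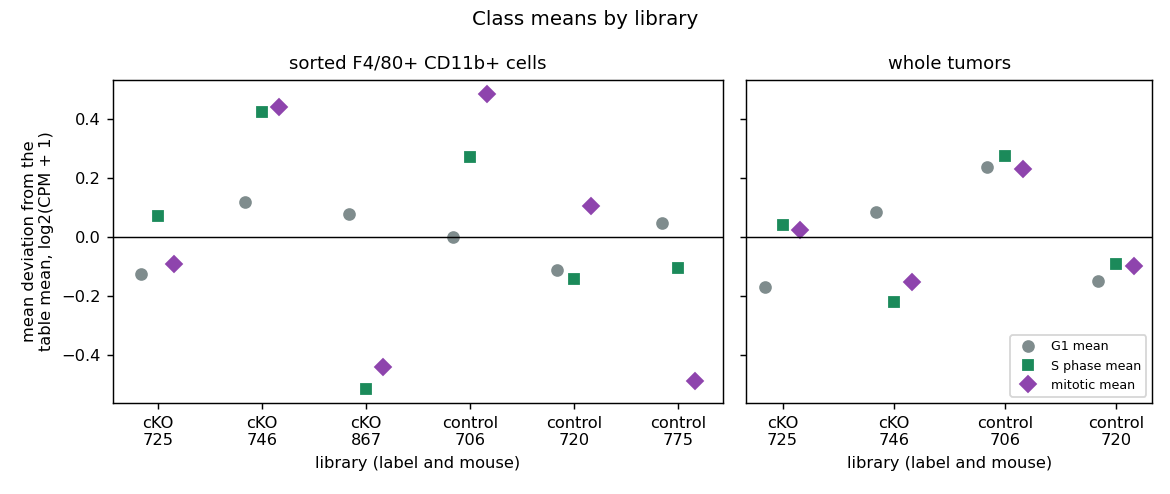
Mean deviation of G1, S phase and mitotic members from their table mean in each library (vertical axis, log2(CPM + 1); grey circles G1, green squares S phase, purple diamonds mitotic), with sorted cells in the left panel and tumors in the right panel. Sorted libraries of cKO 746 and control 706 are above 0 in S phase and mitotic means, and those of cKO 867 and control 775 are under 0 in both. Control 775 is only slightly under 0 in its S phase mean (-0.11, against -0.49 in its mitotic mean).

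Other genes of the same processes, drawn from lists of 40 replication genes, 42 mitotic genes and 10 CDK inhibitors and pocket proteins, gave 0 calls as well (limma adjusted p). In sorted cells 13 of 39 tested replication genes were positive (median -0.14) and 16 of 41 mitotic genes were (median -0.08). Tumors had 16 of 38 positive (median -0.09) and 12 of 41 (median -0.20). Clspn, for the checkpoint mediator claspin, had 3.84, 4.30 and 2.11 CPM in sorted libraries labelled cKO, against 1.46, 0.979 and 0.348 CPM in controls, all above. In tumors Cdc25b, a phosphatase that activates CDK1, had 7.90 and 9.49 CPM in those labelled cKO, against 27.8 and 20 CPM in controls, with a difference of -1.35, an unadjusted p of 0.00859 and an adjusted p of 0.82 (limma). Uhrf1, which carries DNA methylation through replication, had 12.9 and 8.42 CPM in those labelled cKO, against 27.9 and 17.4 CPM in controls. Pola1, the catalytic subunit of polymerase alpha, went the other way, with 25.4 and 19.9 CPM in those labelled cKO, against 14.1 and 8.34 CPM in controls. Of the CDK inhibitors, Cdkn1a (p21) had 10.9 and 14.7 CPM in tumors labelled cKO, against 20.3 and 15.5 CPM in control tumors. Cdkn1c (p57) had 4.03 and 3.39 CPM in those labelled cKO, against 2.14 and 1.46 CPM in controls, and Cdkn2c (p18) had 37.2 and 36.6 CPM, against 26.2 and 36.4 CPM in controls, both above. All 7 of these genes had an adjusted p of 0.82 or more (limma). Of all genes tested in tumors, 21.2% had both tumors labelled cKO above both controls and 14.3% below. In sorted cells 3.78% had every library labelled cKO above every control.

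S phase and mitotic members parted between the sorted cells and the tumors of the same 4 mice. The tables were normalized separately, so these differences are given without a test and were read again on another scale. On the log2(CPM + 1) scale, sorted minus tumor, S phase members averaged 0.27 ± 0.33 and mitotic members -0.35 ± 0.29 (SD over 4 mice), with G1 members at 0.13 ± 0.14, where the median over 13511 genes measured in both was 0.39. S phase minus mitotic was 0.84 and 0.75 in the cKO mice 725 and 746 and 0.44 and 0.45 in the control mice 706 and 720, positive in all 4, with a mean of 0.62 ± 0.21. Protein-coding genes made up 67.6% to 80.1% of sorted reads, against 49.7% to 56.5% of tumor reads. Scaled to them, the class means became -0.22 for S phase and -0.86 for mitotic members, and the median over all genes -0.09. The S phase mean thus changed sign, as did that median, and it lay below the median on both scales. S phase minus mitotic was 0.64 ± 0.24, but a scaling of whole libraries cancels in this contrast apart from the pseudocount. Of 14 S phase members 5 were above the tumor in all 4 mice (Cdt1, Mcm2, Mcm3, Gins2 and Pcna) and 2 below (Rrm1 and Rrm2). Scaled to protein-coding genes, 1 of 14 was above in all 4 mice (Pcna; 7.14%, where 19.3% of all genes were) and 3 of 14 below, and Cdt1, Mcm2, Mcm3 and Gins2 were no longer above in all 4. Of 19 mitotic members 0 were above in all 4 and 7 below (Top2a, Ccna2, Ccnb1, Cdc20, Bub1b, Kif11 and Cenpf). Over all genes 35% were above and 10.8% below in all 4 mice, so the S phase count of 35.7% above was near that background and the mitotic count of 36.8% below was above it; scaled to protein-coding genes, 10 of 19 mitotic members (52.6%) were below in all 4 mice, where 24.9% of all genes were.

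Single genes follow, with mice in the order cKO 725, cKO 746, control 706 and control 720. Pcna had 168, 173, 141 and 149 CPM in the sorted cells, against 80.5, 70.4, 59.2 and 55.7 CPM in the tumors of the same mice, a mean difference of 1.24 ± 0.15 (SD, n = 4 mice). Rrm2, also an S phase gene, had 27.2, 20.7, 22 and 28.4 CPM in the sorted cells, against 62.3, 54.7, 82.2 and 69.8 CPM in the tumors of the same mice, a mean difference of -1.41 ± 0.30. The Rrm2 values were below the tumor in every mouse and those of Pcna above, so the S phase class was not uniform. Ccnb1 had 4.92, 21, 16.3 and 15.5 CPM in the sorted cells, against 39.4, 51.2, 49.7 and 66.9 CPM in the tumors of the same mice, a mean of -1.90 ± 0.66. Ccna2 had 36.4, 46.1, 69 and 45.6 CPM in the sorted cells, against 98.4, 85.3, 127 and 104 CPM in the tumors of the same mice, a mean of -1.08 ± 0.26. Kif11 averaged -0.85 ± 0.24 and Top2a -0.41 ± 0.34. All of these mitotic genes were lower in the sorted cells of each mouse. E2f1 had 12.7, 18.8, 28.8 and 12.4 CPM in the sorted cells, against 4.46, 7.4, 3.6 and 7.11 CPM in the tumors of the same mice, a mean of 1.495 ± 0.84. It was above the tumor in all 4 mice on both scales, the single G1 member to be so. Ratios within a library are free of the scaling. Pcna to Rrm2 was 5.24 to 8.47 in the 6 sorted libraries and 0.721 to 1.29 in the 4 tumors. The summed MCM subunits to Ccna2 stood at 1.76 to 3.23 in sorted libraries and 0.608 to 0.800 in tumors. The summed S phase members to the summed mitotic members stood at 0.838 to 1.3 and 0.546 to 0.711. None of these 3 ranges overlapped between sorted cells and tumors. Pcna alone held 101 to 173 CPM in sorted libraries, where the S phase sums were 290 to 478 CPM. In tumors it held 55.7 to 80.5 CPM, where the S phase sums were 316 to 370 CPM. The ratio of the class sums thus leans on Pcna and was not read without it. Rrm2 to Rrm1 was 0.160 to 0.370 in sorted libraries and 0.539 to 0.804 in tumors, whereas Ccnb1 to Ccna2, at 0.0374 to 0.456 and 0.390 to 0.642, overlapped. The ratios were chosen after the values were seen. The sorted cells had also been dissociated with collagenase D and DNase I, whereas the tumors had been snap frozen, so cell type and handling cannot be told apart in this contrast. The sorted cells also had the higher epithelial marker sums given above (1601 to 2573 CPM, against 891 to 1046 CPM in tumors), whose part was not tested. Within that list, Epcam, Krt14 and Krt5 overlapped between sorted cells and tumors.

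**Figure D5:**
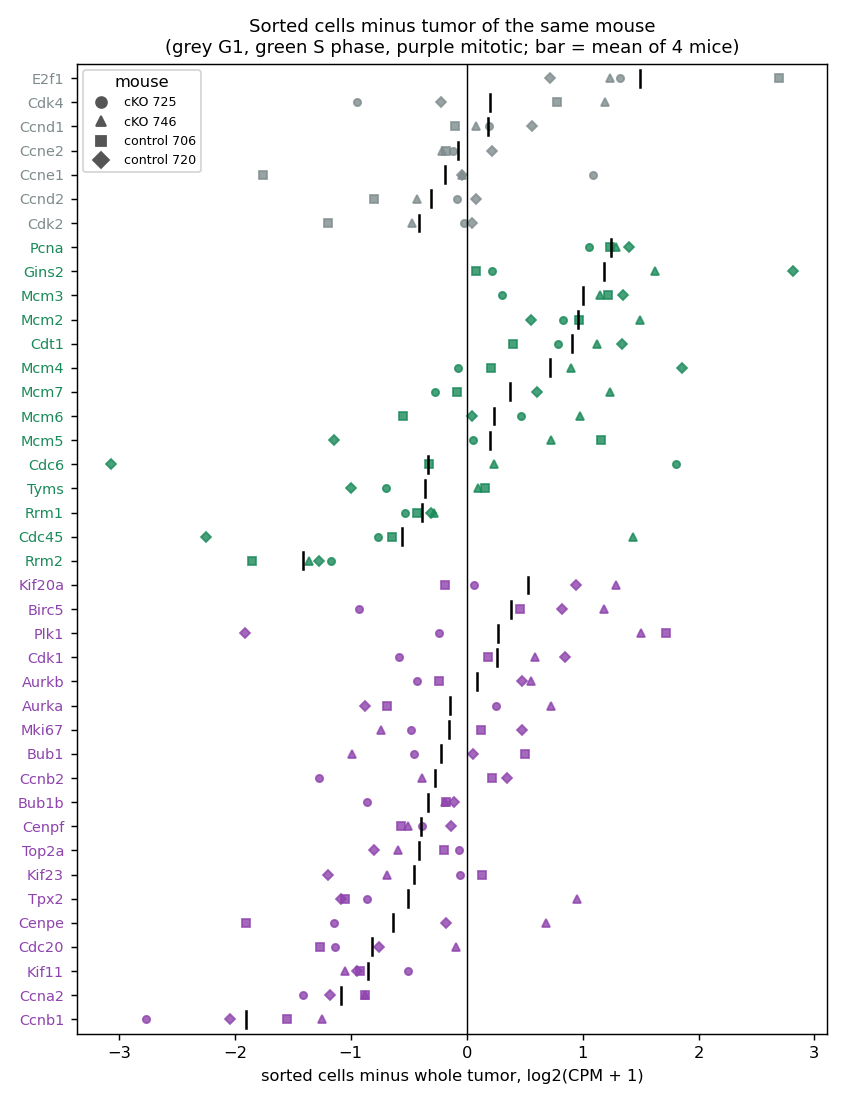
Difference between sorted cells and the whole tumor of the same mouse for all 40 members (horizontal axis, sorted minus tumor on the log2(CPM + 1) scale; markers are the 4 mice, vertical bars their mean), ordered within G1, S phase and mitotic classes. Pcna, Mcm2, Mcm3, Cdt1 and Gins2 lie to the right of 0 in all 4 mice (of these, Pcna alone when scaled to protein-coding genes), and Rrm2, Ccnb1, Ccna2 and Kif11 to the left.

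Levels per length put the members in order within each kind of library, in CPM per kilobase of annotated exon, a union of isoforms that can exceed any single transcript (SD over 6 sorted libraries or 4 tumors). In sorted cells Pcna (58.3 ± 12.5) and Ccnd1 (53.4 ± 21.1) led and did not differ beyond their spread, and Cdk4 (11.5 ± 5.2) and Ccna2 (11.4 ± 2.82) followed. In tumors Ccnd1 (41.7 ± 5.72) came before Pcna (27.7 ± 4.69), Ccna2 (25.4 ± 4.31) and Rrm2 (24.3 ± 4.22), the last 3 within their spread of each other, and then Ccnb1 (12.3 ± 2.7). By this measure Ccnb1 stood at rank 24 in sorted cells and rank 5 in tumors, and E2f1 at rank 16 in sorted cells and rank 29 in tumors. The MCM subunits, which form a complex of 1 copy each, were at 2.31 (Mcm7) to 5.65 (Mcm5) CPM per kilobase in sorted cells and 1.73 (Mcm2) to 5 (Mcm5) in tumors. Ccne1 and Cdc6 were last in both kinds, at 0.243 and 0.425 CPM per kilobase in sorted cells and 0.228 and 0.640 in tumors.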

How the data were processed

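RNA was depleted of ribosomal RNA, and STAR 2.7.8a and Partek were used with GRCm38 (mm10), per the submitters' processing notes. The authors deposited log2 values. Undone as powers of 2 and lowered by 1, they sum to 1000000 in each library, so each was taken to be log2(CPM + 1); no formula is given in the sources used here. Low values gave the worth of 1 read and so the depth, and 81.4% to 87.6% of them were whole reads within 0.1 read, too few for a count test. Coordinates listed in the tables follow another build than GRCm38 and are not printed.

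The fits, 1 per table, used limma 3.58.1 (R 4.3.3; eBayes with trend, a pseudocount of 1 CPM as deposited, genes averaging 1 CPM or more, Benjamini-Hochberg over all genes, threshold 0.05, two-sided). Each library is a different mouse within its table. The fit was tried on simulated data with normal noise at the spread limma gave each gene. Changes were placed only in genes averaging 5 CPM or more. Of genes changed 2-, 4- and 8-fold, it recovered 9.5%, 75.5% and 92% in the sorted design (16304 genes simulated). In the tumor design (14630 genes) the rates were 21.5%, 70.5% and 81%. Recovery of weaker genes was not simulated.

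The members, lists, motifs and tests were chosen with earlier results of these data known. Differences with a test come from these, not all of which are printed: Mki67, Top2a, Cdk1, Ccnb1, Plk1, Mcm2, Mcm5, Pcna, Rrm2, Ccnd1, Ccnd2 and E2f1, members whose groups do not overlap in a table, and the 2 largest absolute differences of each class; of other lists, genes come from the 3 with the lowest unadjusted p per list and table. A result that this rule picked is not reported here. Gene positions and exon lengths come from GENCODE vM21 by identifier, and promoters from RefSeq. Alternatives were pseudocounts of 0.1 and 5, expression minimums, other scalings, eBayes without the trend, library weights and leaving out each library. The 2 alternatives to the contrast between sorted cells and tumors (scaling to protein-coding genes, and only members at 5 CPM or more) and the ratios were added after the data were seen.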

Additional observations from a re-analysis of the deposited data

Results flagged for a closer look

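Aurka, the Aurora A kinase gene, was flagged because its libraries labelled cKO were all above the controls in sorted cells and below in tumors. Of all genes tested, 3.78% were likewise all above in sorted cells, and 14.3% were all below in tumors. The nearest sorted values were 4.33 CPM in cKO 867 and 4.17 CPM in control 706. The difference was 0.79 in sorted cells (3 against 3 libraries) and -0.53 in tumors (2 against 2 libraries), on the log2(CPM + 1) scale. Without cKO 746 the sorted difference was 0.39, and the tumor difference was -0.17 without cKO 725 and -0.89 without cKO 746. The difference between the kinds of library was not tested, and the 4 tumors came from mice that also gave sorted cells.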

How the results depend on the processing

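No member passed the adjusted threshold under any of the 16 settings tried in sorted cells or the 14 in tumors, and the lowest limma adjusted p of a named member was 0.96 and 0.56. No paired analysis was possible because libraries labelled cKO and control come from different mice and share no mouse number, and the partners matched in size are not named. With other scalings the median over all genes in tumors moved from 0.09 to -0.02 at most (protein-coding genes). With a pseudocount of 5 the sorted Plk1 difference was -0.0533, and with protein-coding scaling the sorted Top2a difference was -0.0324. With no expression filter the sorted G1 median was 0.0583. The tumor S phase minus mitotic difference was -0.19 at a pseudocount of 0.1 and 0.0363 at 5. Protein-coding scaling gave -0.22 for S phase and -0.86 for mitotic members in sorted minus tumor. With 1 library left out, ranges in sorted cells were 0 to 3 genes past the threshold, -0.23 to 0.13 for the G1 median, -0.16 to 0.24 for the S phase median, -0.47 to 0.0421 for the mitotic median, -0.25 to 0.41 for Top2a, -0.17 to 0.38 for Rrm2, -0.49 to 1.15 for Plk1, -0.0406 to 0.28 for Mcm2, -0.0132 to 0.38 for Pcna, -0.50 to 0.62 for E2f1, -1.35 to 0.0594 for Cdk1 and -0.89 to 0.0748 for Mcm5. In tumors they were -0.255 to 0.14 for the S phase median, -0.42 to -0.0130 for the mitotic median, -0.38 to 0.0277 for the median of all members, -0.52 to 0.13 for Top2a, -0.57 to 0.0836 for Cdk2, -0.31 to 0.19 for Mcm2, -0.48 to 0.0277 for Mcm5, -0.26 to 0.56 for E2f1, -0.44 to 0.75 for Cdk1, -0.10 to 0.37 for Ccnd1 and -0.0332 to 0.96 for Ccnd2. Where a range crosses 0 the direction rests on single libraries, and the cause was not tested. S phase minus mitotic in sorted minus tumor was 0.64 when scaled to protein-coding genes. A scaling of whole libraries cancels in this contrast apart from the pseudocount, so that setting could hardly change it. With only members at 5 CPM or more, which is a filter of genes, the contrast was 0.75. Depth limits the values that rest on 3 reads or fewer, but weak genes were coarser than that. Among genes averaging under 5 CPM in the other libraries, the most frequent read number above 3 was far higher. It was 12 to 70 reads in sorted libraries (0.52 to 3.12 CPM) and 42 to 95 reads in tumors (1.19 to 2.21 CPM). Several values of Cdc6, Cdc45, Cdc20 and Plk1 lie in or near these ranges, and their precision was not tested.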

Other observations

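Some genes of the same processes outside the 40 had groups that did not overlap. Those named had among the 3 lowest unadjusted p of their list. Counting genes with every library labelled cKO on one side, sorted cells had 1 of 39 replication and 1 of 41 mitotic genes above (3.78% of all genes). Another 3 and 0 were below (3.45% of all genes). Tumors had 5 of 38 and 4 of 41 above (21.2% of all genes), and 7 and 13 below (14.3% of all genes). In sorted cells Ckap2l, a spindle protein gene, had 5.90, 20.9 and 5.72 CPM in the libraries labelled cKO, against 4.93, 4.05 and 1.43 CPM in controls. In tumors Hmmr, which encodes a spindle-associated hyaluronan receptor, had 12.5 and 17.3 CPM in those labelled cKO, against 30.3 and 25.5 CPM in controls, and Rfc2, a subunit of the clamp loader, had 2.69 and 6.30 CPM, against 17.1 and 10.8 CPM in controls. The limma adjusted p was 0.9998 for Ckap2l, 0.83 for Hmmr and 0.82 for Rfc2.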
